A study of Mus musculus with 6 samples.

Results

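Numbered zinc finger protein genes, the mouse genes named Zfp and a number, were examined in hematopoietic stem cells (HSCs) of control mice and of mice given ferulic acid (FA) for a long time. The deposited table lists 354 such protein-coding genes among 27198 genes (Zfp36 was left out, since its product is not a protein of this kind), and the 214 with a mean of at least 200 raw counts over all libraries are the members described here. The members were thus chosen by their level over both groups together, so their level is not a result. Of these, 13 had a Ctrl mean under 200 and 5 had an l-FA mean under 200, and these 18 entered through the group in which they were higher.

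The RNA came from 3 Ctrl and 3 l-FA libraries of male wild type C57BL/6 mice, 8 to 10 weeks old. For l-FA, a dose of 50 mg/kg was injected into the peritoneum every day over 30 days, and Ctrl mice had vehicle only. HSCs were sorted as Lineage-, Sca-1+, c-Kit+, CD135- and CD34- cells of the bone marrow. The number of mice behind a library is not stated, so p-values measure the spread between these libraries, which may be technical.

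Proteins of this family carry tandem C2H2 zinc fingers, short folds in which a pair of cysteines and a pair of histidines hold a zinc ion, and neighbouring fingers read neighbouring bases of DNA. Many also carry a KRAB domain, which binds TRIM28 and through it the methyltransferase SETDB1 and HP1 proteins, and so silences chromatin, above all at retroelements. KRAB zinc finger genes multiplied by tandem duplication and lie in clusters on a few chromosomes, and other members of the name series work in transcription activation, ribosome quality control or RNA processing.

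The first complete finger unit of some members is printed below to show what is repeated along these genes and how close relatives can be. Each unit runs from the first cysteine of a finger to the base before the first cysteine of the next, is read 5′ to 3′ on the coding strand, and has the codons of the zinc-binding cysteines and histidines in capitals. Sequences and positions are those of the GENCODE M21 transcripts on GRCm38. Zfp867, Zfp72 and Zfp40 are among the largest rises, Zfp719 is among the largest falls, and Zfp808 and Zfp934 are a pair chosen after their values were seen because they share sequence.
Zfp867 (chr11:59464052-59464135, minus strand, exon 4 of 4): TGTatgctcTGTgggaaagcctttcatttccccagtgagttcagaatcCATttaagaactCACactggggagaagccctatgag
Zfp72 (chr13:74372643-74372726, minus strand, exon 5 of 5): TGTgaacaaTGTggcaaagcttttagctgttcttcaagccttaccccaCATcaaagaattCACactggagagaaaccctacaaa
Zfp40 (chr17:23176601-23176684, minus strand, exon 4 of 4): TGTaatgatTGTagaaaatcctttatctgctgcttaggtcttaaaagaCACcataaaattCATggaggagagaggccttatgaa
Zfp719 (chr7:43590016-43590099, plus strand, exon 4 of 4): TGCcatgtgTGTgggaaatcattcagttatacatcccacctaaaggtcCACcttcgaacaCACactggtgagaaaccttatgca
Zfp808 (chr13:62171361-62171444, plus strand, exon 4 of 4): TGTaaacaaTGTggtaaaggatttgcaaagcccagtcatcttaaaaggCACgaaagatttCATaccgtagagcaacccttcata
Zfp934 (chr13:62518436-62518519, minus strand, exon 4 of 4): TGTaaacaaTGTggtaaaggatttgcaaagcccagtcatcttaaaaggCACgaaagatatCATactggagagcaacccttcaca
The units of Zfp72 and Zfp40 are equal at 53 of 84 bases, and those of Zfp867 and Zfp719 at 49. The units of Zfp808 and Zfp934 are equal at 80 of 84 bases, so a short read from this stretch may not tell the pair apart.

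Each library held between 19287735 and 20380610 counts. Taken over members, the median chi-square of a library pair was 0.948 to 1.23 for the 6 pairs within a group and 16.5 to 22.9 for the 9 pairs across groups. Among markers of the sorted cells, 7 of 9 HSC genes rose and 1 fell, and their summed level was 1555 to 1593 CPM (counts scaled to a common library total) in Ctrl and 1781 to 1799 in l-FA. Kit made up most of it (1067 CPM in Ctrl and 1157 in l-FA). The transcripts of Cd34 and Flt3 (which encodes CD135), proteins the sort selected against, were present in both groups, at a summed 2081 to 2124 CPM in Ctrl and 2701 to 2813 in l-FA. Markers of other cells moved as well. The 12 neutrophil and monocyte genes summed to 23000 to 23850 CPM in Ctrl and 5766 to 6097 in l-FA, with 11 lower and 1 higher. Most of these sums was Mpo (18544 and 4938 CPM). The T and NK cell sum, 546 to 567.8 CPM in Ctrl and 302.4 to 312.7 in l-FA, was almost all Nkg7 (556 and 307 CPM), which fell as did Klrb1c, while Cd3d, Cd3e and Trac had means under 0.5 CPM in both groups and not tested. Among erythroid genes Tfrc fell (111 and 52.7 CPM), and Hba-a1, Hbb-bs, Klf1 and Car1 were not called. Of 5 megakaryocyte genes 3 rose and none fell (206.8 to 216.8 CPM in Ctrl, 295.1 to 301.3 in l-FA, mostly Itga2b at 173 and 240). Of the 6 B cell genes 3 were tested and 1 rose, Cd79b (53.0 and 61.7 CPM). It made up almost all of their sum (55.6 to 55.9 and 63.2 to 66.0 CPM), and Pax5 was at no more than 3 counts. Their part in the results below was not tested, and in bulk RNA fewer cells of a type and less RNA per cell cannot be told apart.

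Whether the members changed together between Ctrl and l-FA was asked first. Of the 214 members, 100 rose in l-FA HSCs against Ctrl HSCs, 23 fell and 91 were not called, at an adjusted p under 0.05 in edgeR's quasi-likelihood test with Benjamini-Hochberg adjustment over the 16520 genes tested. This is 46.7% of the members higher and 10.7% lower, where 25.5% of all genes tested were higher and 25.0% lower. Among the 8971 other protein-coding genes with at least 200 mean counts, 26.3% were higher and 30.6% lower. The median log2 fold change of the members was 0.21 (quartiles -0.04 and 0.50), against 0.00 for all genes tested and -0.02 for the other protein-coding genes. Changes were mostly below the 2-fold limit used by the study: past it lay 8 members that rose and 1 that fell, while 6.68% of all genes tested rose and 5.1% fell past it, and 0.981% and 1.63% of the other protein-coding genes at the same count limit. With the 18 members that entered through one group left aside, 89 of 196 rose and 20 fell, and past 2-fold lay 2 rises and 0 falls.

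**Figure D1:**
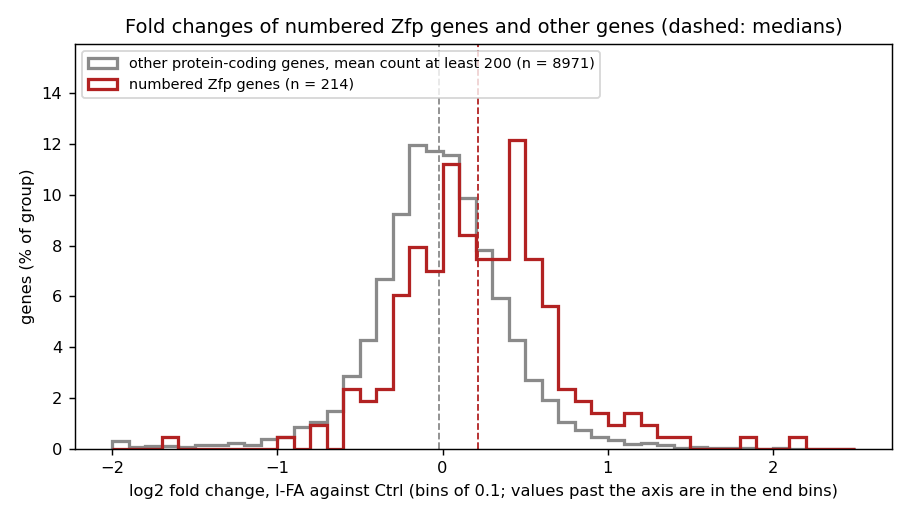
Share of genes (% of each group, y axis) by log2 fold change of l-FA against Ctrl (x axis, bins of 0.1) for the 214 members (red) and the 8971 other protein-coding genes at or above 200 mean counts (grey), with dashed lines at the medians. The members are shifted to the right, with a median of 0.21 against -0.02.

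The shift was alike in every l-FA library. The median member stood at a log2 ratio to the Ctrl mean of 0.005, 0.016 and -0.019 in the Ctrl libraries and of 0.242, 0.241 and 0.241 in the l-FA libraries. All l-FA libraries lay above all Ctrl libraries for 114 members, and below them for 31. In all genes tested these orders held for 30.4% and 29.9%. Other scalings and DESeq2 gave 99 to 105 members higher and 20 to 22 lower. The count of falls was less steady than that of rises, at 15 without Ctrl library 1 and 14 with the replicate block, against 91 and 93 rises.

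Of the 10 largest rises, 6 (Zfp867, Zfp831, Zfp712, Zfp72, Zfp40 and Zfp667) had a Ctrl mean under 200 counts and passed the limit only through l-FA, so their place among the members depended on the rise, and their values are a description. Zfp867 (ENSMUSG00000054519) had 143, 135 and 143 counts in Ctrl and 401, 417 and 385 in l-FA. The groups were far apart, at 7.29 ± 0.145 CPM in Ctrl and 19.7 ± 0.931 in l-FA after TMM normalization (SD, n = 3), a log2 fold change of 1.44 (SE 0.071, adjusted p = 2.79e-05 in edgeR). It is listed on chromosome 11 from 59352023 to 59363300 and encodes a KRAB pattern and 10 fingers. Zfp831 (ENSMUSG00000050600), with 2 fingers and no KRAB pattern, had 113, 114 and 108 counts in Ctrl and 321, 284 and 314 in l-FA. Its level went from 5.81 ± 0.352 to 15.1 ± 0.806 CPM (SD, n = 3), a log2 fold change of 1.37 (SE 0.087, adjusted p = 6.32e-05 in edgeR), again with no overlap between the groups.

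Zfp712, with a KRAB pattern and 20 fingers, counted 179, 168 and 172 in Ctrl and 433, 442 and 422 in l-FA. The log2 fold change was 1.24 (SE 0.069, adjusted p = 3.97e-05 in edgeR), and the listed genes Gm46440 and Gm48705 overlap it on the other strand. Zfp72 counted 127, 119 and 134 in Ctrl and 310, 295 and 289 in l-FA. All l-FA libraries of Zfp72 were more than 2-fold above all Ctrl libraries in counts, and its log2 fold change was 1.15 (SE 0.070, adjusted p = 5.57e-05 in edgeR). Zfp40, with 16 fingers, had 184, 203 and 198 counts in Ctrl and 431, 444 and 443 in l-FA, a log2 fold change of 1.09 (SE 0.078, adjusted p = 9.73e-05 in edgeR).

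The other rises among the 10 largest were Zfp180, Zfp426, Zfp667, Zfp866 and Zfp763, with log2 fold changes from 0.99 to 1.29. Zfp667 had 140, 141 and 149 counts in Ctrl and 310, 296 and 309 in l-FA, and Zfp763 had 286, 245 and 284 in Ctrl and 576, 542 and 593 in l-FA. Both groups were tight in these genes and did not overlap. Zfp426 was looser in Ctrl, with 228, 201 and 392 counts against 695, 605 and 654 in l-FA. Zfp866 overlaps Gm20422 on the same strand and shares 11.95% of its transcript windows with it. Zfp180 rested on spread-out controls of 743, 233 and 286 counts, against 1191, 853 and 1213 in l-FA. Its adjusted p from edgeR was 0.0453, and between fits that left out 1 library its log2 fold change went from 1.0 to 1.99 and its adjusted p up to 0.123, and the Ctrl library with 743 counts stood apart.

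Falls were fewer than rises, and the median log2 fold change was -0.32 over the members that fell and 0.49 over those that rose. Of the 10 largest falls, Zfp961, Zfp598 and Zfp719 had an l-FA mean under 200 counts and passed the limit only through Ctrl. Zfp692 (ENSMUSG00000037243) had 1431, 1399 and 1485 counts in Ctrl and 990, 909 and 907 in l-FA. Its level fell from 74.7 ± 0.247 to 46.0 ± 1.03 CPM (SD, n = 3), a log2 fold change of -0.70 (SE 0.036, adjusted p = 2.95e-05 in edgeR), with the groups wide apart. It is listed on chromosome 11 from 58197895 to 58205453, in the same cluster as Zfp867. Zfp839, in which no finger pattern was found, had 454, 394 and 461 counts in Ctrl and 238, 209 and 246 in l-FA, a log2 fold change of -0.99 (SE 0.088, adjusted p = 0.000215 in edgeR). The pseudogene Mpc1-ps overlaps it on the other strand and had at least as many counts, so its value is uncertain.

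Zfp598, which encodes a ubiquitin ligase that marks collided ribosomes, had 310, 297 and 309 counts in Ctrl and 222, 170 and 191 in l-FA. The l-FA libraries were all lower, with a log2 fold change of -0.73 (SE 0.096, adjusted p = 0.000996 in edgeR). Zfp719 (243, 255 and 280 counts against 199, 187 and 159), Zfp709 (456, 452 and 452 against 331, 342 and 314) and Zfp142, the member with the most fingers at 36 (634, 605 and 598 against 485, 457 and 424), fell by 0.59, 0.54 and 0.51 on the log2 scale, all without overlap of the groups. Zfp2 fell by 0.40, Zfp26 by 0.48 and Zfp777 by 0.32. Leaving out 1 library brought the adjusted p from edgeR up to 0.0629 for Zfp26 and 0.110 for Zfp777. Zfp961 had the most negative log2 fold change, -1.69, with an SE of 0.47, from counts of 251, 560 and 575 in Ctrl and 226, 69 and 161 in l-FA, and its adjusted p of 0.0224 in edgeR went up to 0.0656 with 1 library left out.

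**Figure D2:**
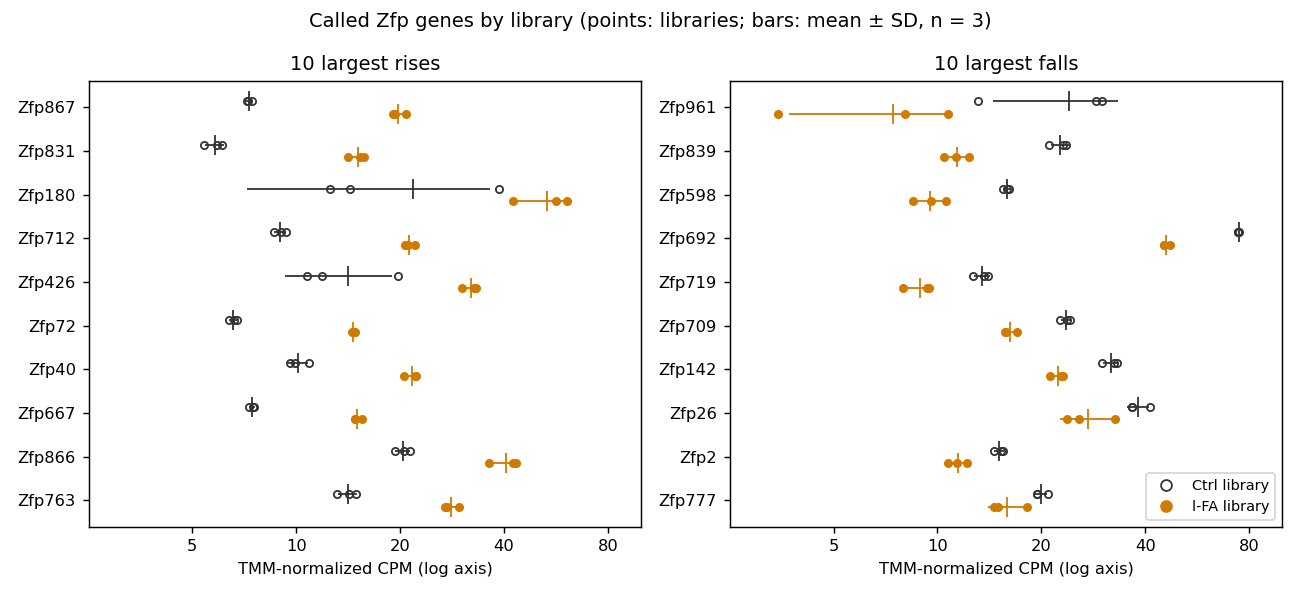
TMM-normalized CPM (x axis, log scale) in each library of the 10 members with the largest rises (left) and the 10 with the largest falls (right) among members called; open points are Ctrl libraries, filled points l-FA libraries, and bars the mean ± SD (n = 3). The groups lie apart in all 20 genes, and the spread is widest in Zfp180, Zfp426 and Zfp961.

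Members with known roles were looked at by role. Among repressors of retroelements and imprints, Zfp445, which maintains imprints, rose from 1632, 1676 and 1674 counts in Ctrl to 2299, 2276 and 2220 in l-FA, a log2 fold change of 0.37 (SE 0.038, adjusted p = 0.000374 in edgeR). Zfp809, which silences integrated retroviruses, counted 308, 292 and 319 in Ctrl and 259, 242 and 329 in l-FA, and its change of -0.22 was not called (adjusted p = 0.197 in edgeR). Zfp932, another repressor of retroelements, was not called either, and its libraries scattered in both groups. Zfp57, Zfp568 and Zfp708 were under the count limit, at mean counts of 18.3, 107 and 42.7. Zfp708 had 50, 35 and 34 counts in Ctrl and 137, 0 and 0 in l-FA.

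Of 3 members linked to ribosomes, Zfp598 and Zfp593, a factor of ribosome assembly, fell. Zfp593 had 816, 878 and 917 counts in Ctrl and 783, 780 and 783 in l-FA (log2 fold change -0.23, SE 0.054, adjusted p = 0.0114 in edgeR) and overlaps the listed gene Zfp593os. Zfp622, also a ribosome assembly factor, was not called (-0.11, adjusted p = 0.66 in edgeR). Of the ubiquitin and SUMO ligases, neither Zfp91 nor Zfp451 was called. Zfp91 had 495, 521 and 579 counts in Ctrl and 6, 597 and 590 in l-FA, so 1 l-FA library holds almost none of it while the others match Ctrl.

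Zfp207, a spindle assembly protein and the third highest member per length, rose from 4386, 4367 and 4540 counts to 5942, 5794 and 5843 (log2 fold change 0.32, SE 0.024, adjusted p = 0.000118 in edgeR). Zfp638 and Zfp830, which act with RNA processing factors, fell by 0.18 and 0.15, and both calls were lost in fits that left out 1 library, with adjusted p from edgeR up to 0.105 and 0.150. Zfp106, an RNA-binding protein, was not called. Zfp326, a further RNA processing gene, was under the limit with a mean of 167 counts and fell by 0.78 (adjusted p = 0.00767 in edgeR).

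Among activators and cofactors, Zfp292 rose by 0.30 and Zfp148 by 0.20 on the log2 scale, and Zfp384 fell by 0.26. The call of Zfp148 was lost with 1 library left out (adjusted p up to 0.0610 in edgeR). Zfp521, a cofactor that restrains differentiation of blood progenitors, had 278, 409 and 236 counts in Ctrl and 499, 357 and 644 in l-FA. The groups overlapped and its change of 0.61 was not called (SE 0.29, adjusted p = 0.122 in edgeR). Zfp143, Zfp217, Zfp281 and Zfp335 were not called, with log2 fold changes from -0.27 to 0.13. Zfp318 and Zfp609 were under the count limit, and of these Zfp609 rose by 0.43 (adjusted p = 0.017 in edgeR, up to 0.0516 with 1 library left out).

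Members were then grouped by what their coding sequences encode. Translated GENCODE M21 transcripts gave a median of 10 fingers per member. A KRAB pattern was found in 102 members, of which 53 rose and 7 fell, with a median log2 fold change of 0.38. Of the 112 without it, 47 rose and 16 fell, with a median of 0.15. The pattern is strict and its absence does not show that a protein lacks the domain. A looser pattern, chosen after seeing the data, was found in 115 members, of which 62 rose and 7 fell, and the 99 without it held 38 rises and 16 falls. By finger number, 11 of 30 members with 0 to 4 fingers rose and 9 fell, as did 26 and 5 of 66 members with 5 to 9 fingers, 39 and 6 of 73 members with 10 to 14, and 24 and 3 of 45 members with 15 or more. The share of falls was thus close to the 30.6% of the other protein-coding genes in the group with the fewest fingers, and 6.67% to 8.22% in the other groups. The difference between these groups of members was not tested.

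Transcripts of members were poorer in G and C than those of all genes tested, with a median of 43.9% against 49.4%. In transcripts under 45% GC, 62 of 119 members rose and 9 fell, while 25.7% of the other protein-coding genes in that range rose. From 45% to 50% GC, 17 of 35 members rose, against 26.4% of the others, and at 50% or more 21 of 60 rose and 10 fell, against 26.5% of the others higher. For length, 2 of 13 members under 2000 bases rose, 29 of 51 from 2000 to 3000, 30 of 59 from 3000 to 4000 and 39 of 91 above, where 18.3%, 23.5%, 26.4% and 31.9% of the other genes rose.

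Numbered Zfp genes were joined into chromosome clusters where neighbours lay at most 1 Mb apart and at least 3 were listed. This gave 31 clusters with 236 genes, 137 of them members. Of the members in clusters 72 rose and 12 fell (52.6% and 8.76%, median log2 fold change 0.28), and of the 77 outside clusters 28 rose and 11 fell (median 0.10). Between the ends of the same clusters lie 133 other protein-coding genes with at least 200 mean counts, of which 33 rose and 39 fell, 24.8% and 29.3%, with a median of -0.02. These shares were close to those outside clusters, 26.3% and 30.6% of 8838 genes. A gap of 0.5 Mb gave 67 rises and 11 falls in 127 members, and a gap of 2 Mb gave 79 and 13 in 151. Without a KRAB pattern, 28 of 50 clustered members rose and 19 of 62 others, and with it 44 of 87 and 9 of 15, a difference that was not tested.

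In 22 clusters there were at least 3 members, 126 in all. The median log2 fold change was above 0 in 19 of these and below in 3, and 19 held more rises than falls. The largest cluster, on chromosome 17 from 21229165 to 23818461, lists 23 genes with 17 members, of which 11 rose, none fell and 6 were not called (median 0.39). In it Zfp40 rose the most, followed by Zfp677 (0.80), Zfp213 (0.60), Zfp994 (0.59) and Zfp160 (0.58). Zfp943 (-0.06), Zfp758 (0.02), Zfp760 (0.07), Zfp53 (0.09), Zfp946 (0.17) and Zfp820 (0.21), interspersed with these, were not called. A further cluster on the same chromosome, from 32984470 to 33850753, had 9 members with 5 rises and no fall (median 0.44). Zfp598 lies outside any cluster and was the one member of chromosome 17 that fell.

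Chromosome 7 holds 51 of the members, with 29 rises and 6 falls. Its cluster from 126832233 to 127485168 has 10 members, of which 7 rose and 2 fell. Zfp747 (226, 216 and 305 counts in Ctrl, 492, 506 and 518 in l-FA) and Zfp764 (268, 274 and 273 in Ctrl, 475, 436 and 449 in l-FA) rose by log2 fold changes of 0.95 and 0.66, and both share windows with 9130019O22Rik (36.9% and 27.6%), so reads could be split between them. Between Zfp764 and the rising Zfp689 lies Zfp688, which went from 294, 283 and 330 counts to 248, 283 and 245 (log2 fold change -0.30, adjusted p = 0.0318 in edgeR, up to 0.108 with 1 library left out). Zfp768 fell by 0.27. Neighbours in this cluster thus differed in direction.

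The cluster on chromosome 7 from 29467977 to 29869175 had 8 members with 4 rises and 1 fall, that of Zfp146 (709, 763 and 783 counts in Ctrl, 662, 642 and 603 in l-FA). On chromosome 13, 11 of 17 members rose and none fell, and the cluster from 65426628 to 67975121 held 5 rises in 7 members, Zfp712 and Zfp738 (0.80) among them. Rises and falls met in 9 clusters. On chromosome 8 from 72635863 to 72747636, Zfp709 and Zfp961 fell while Zfp617 between them rose (263, 275 and 275 counts in Ctrl, 372, 393 and 426 in l-FA, log2 fold change 0.47). The value of Zfp617 is uncertain, since it shares 44.0% of its windows with Gm18180 and overlaps Zfp882 and other listed genes on the same strand. On chromosome 15, by contrast, 0 of 7 members rose and 1 fell. These 7 were measured less precisely, with a median SE of 0.191 against 0.078 over all members. The cluster there from 75488528 to 76809648 was the only one of the 22 without a rise, with none of its 4 members called in edgeR. Positions of clusters are those of the deposited table.

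**Figure D3:**
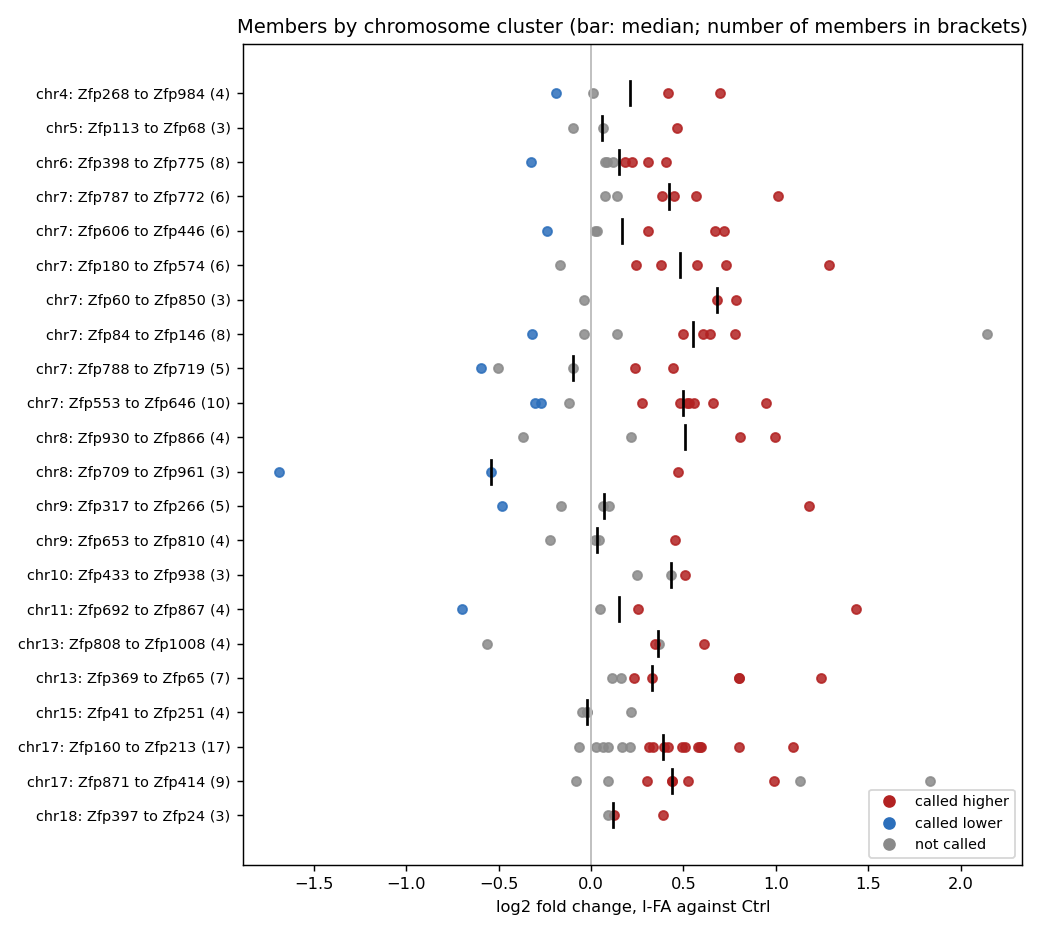
Log2 fold change of l-FA against Ctrl (x axis) of the members in the 22 chromosome clusters with at least 3 members (y axis, named by chromosome and by first and last member). Points are members, coloured by call, and black bars are medians, which lie right of 0 in 19 clusters.

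Overlap with other listed genes was examined because it is not known whether the counting used strand, and reads from overlapping genes could then be mixed. Of the members, 78 overlap another listed gene by at least 1 base and 136 overlap none. Rises made up 73 of the 136 members without overlap (53.7%), with 11 falls and a median log2 fold change of 0.31, and 27 of the 78 with overlap (34.6%), with 12 falls and a median of 0.09. Overlap on the same strand was found in 29 members (8 rises, 5 falls) and on the other strand only in 40 (15 rises, 6 falls). The remaining 9 overlap a gene whose strand was not found.

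In 11 members the overlapping gene had at least as many counts as the member itself, and of these Zfp866 and Zfp668 rose, Zfp839 fell and 8 were not called. Zfp668 and Zfp646 are the only members that overlap each other, on opposite strands of chromosome 7. Zfp646 had 936, 885 and 910 counts in Ctrl and 1375, 1425 and 1369 in l-FA, and Zfp668 had 382, 389 and 404 in Ctrl and 547, 448 and 509 in l-FA. Both rose, by 0.53 and 0.28 on the log2 scale, and if counting ignored strand these values would not be independent. The call of Zfp668 was lost with 1 library left out (adjusted p up to 0.0685 in edgeR).

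**Figure D4:**
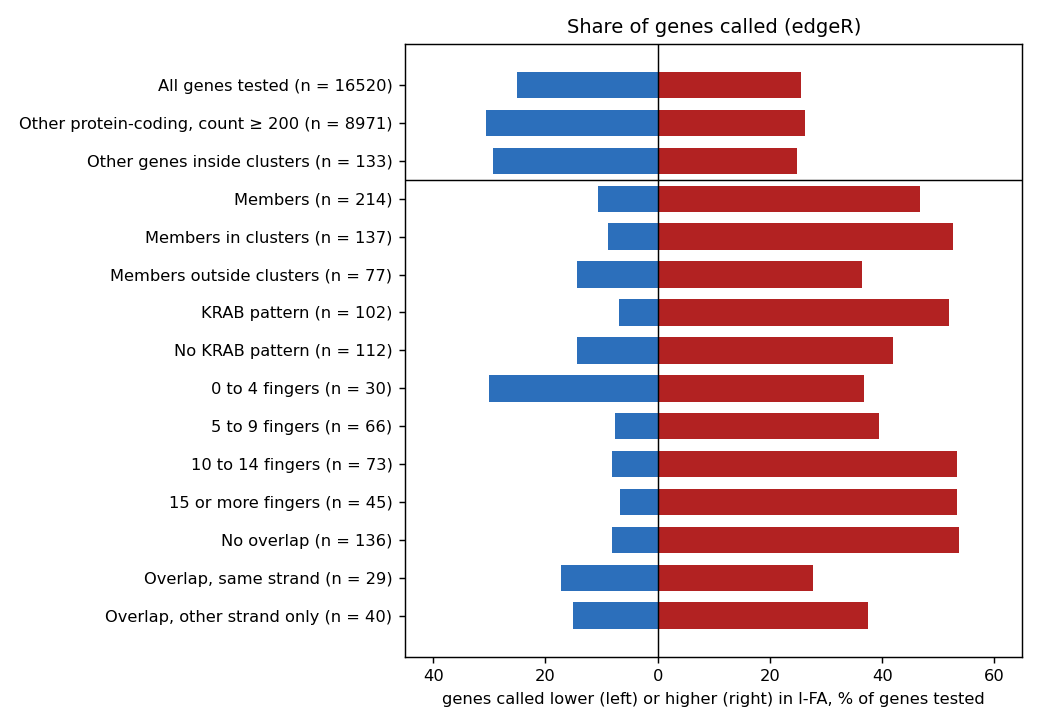
Share of genes called higher (red, right) and lower (blue, left) in l-FA, in % of genes tested (x axis), for 3 backgrounds above the line and for the members and groups of members below it. Members in clusters reach 52.6% higher, while other genes inside the same clusters stay at 24.8%.

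The promoters of members were searched for 5 short motifs on both strands, in the 300 bases from 250 before to 50 after the RefSeq gene start (GRCm38.p6). A promoter matched by symbol was found for 172 members. Where several were listed, the one nearest to the start of the transcript used was taken for members. For other genes and for all promoters the first listed was taken. The shares below thus compare promoters chosen by unlike rules, and the effect of this was not tested. The ZNF143-type motif, named for an activator encoded by Zfp143 in the mouse, was in 25 of 172 member promoters (14.5%), in 378 of 7194 promoters of other protein-coding genes with at least 200 mean counts (5.25%) and in 2.15% of all 27025 promoters. It was in 16 of 79 members that rose, 3 of 19 that fell and 6 of 74 not called. Of 25 matches 23 were before the start, and none overlapped a match of another motif searched. The ETS-type motif CCGGAAGT was in 12.8% of member promoters and 10.1% of the promoters of other expressed genes. The shares were 2.33% and 2.04% for a YY1-type motif, 2.33% and 3.49% for TGACGTCA, a CRE-type motif, and 4.07% and 2.39% for an NRF1-type motif. A match is a run of letters and no measured binding.

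The stretches around the match to the ZNF143-type motif are shown for members that rose and for a pair that fell, with the match in capitals and 20 bases on either side, on the strand of the gene and 5′ to 3′, because this motif differed most between members and other genes. Matches in the opposite orientation are shown as they read on the gene's strand.
Zfp712 (chr13:67061195-67061245, minus strand, rose): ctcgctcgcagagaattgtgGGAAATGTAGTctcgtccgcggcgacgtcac
Zfp72 (chr13:74390851-74390901, minus strand, rose): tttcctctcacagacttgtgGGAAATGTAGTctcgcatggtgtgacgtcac
Zfp738 (chr13:67683537-67683587, minus strand, rose): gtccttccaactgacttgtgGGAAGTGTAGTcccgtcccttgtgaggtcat
Zfp94 (chr7:24316793-24316843, minus strand, rose): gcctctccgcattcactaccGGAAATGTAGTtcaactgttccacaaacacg
Zfp60 (chr7:27731324-27731374, plus strand, rose): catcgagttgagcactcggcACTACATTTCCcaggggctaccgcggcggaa
Zfp692 (chr11:58307001-58307051, plus strand, fell): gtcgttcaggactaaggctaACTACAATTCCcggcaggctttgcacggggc
Zfp146 (chr7:30169840-30169890, minus strand, fell): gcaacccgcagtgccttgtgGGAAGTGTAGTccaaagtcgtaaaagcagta
The matches of Zfp712, Zfp72 and Zfp738, all on chromosome 13, begin 55, 52 and 55 bases before the start in the same orientation. Zfp143 itself had 513, 687 and 576 counts in Ctrl and 497, 518 and 548 in l-FA and was not called (log2 fold change -0.27, SE 0.13, adjusted p = 0.132 in edgeR).

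Because duplicated genes share sequence, the share of 50-base windows of a member's transcript that also occur in another gene's transcripts was taken as a measure of how reads could be split between copies. It was 0 in 102 members, above 5% in 44 and above 50% in 9. Of the 44, 25 rose and 3 fell (median log2 fold change 0.38), and of the 170 others 75 rose and 20 fell (median 0.17). Values of members with much shared sequence are uncertain: Zfp969 shares 100% of its windows and Zfp433 94.2%. Zfp934, which shares 45.6% of its windows, had 216, 207 and 304 counts in Ctrl and 407, 419 and 345 in l-FA and rose (0.61, adjusted p = 0.0124 in edgeR). Its relative Zfp808 had 287, 281 and 202 counts in Ctrl and 368, 320 and 365 in l-FA and was not called (0.37, adjusted p = 0.101 in edgeR). In Ctrl library 3 Zfp934 was at its Ctrl highest and Zfp808 at its lowest.

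Single libraries stood apart in some members, although libraries of a group otherwise agreed closely. In 19 members 1 or more libraries were at least 2-fold from both others of their group, and of these 1 rose (Zfp180), 1 fell (Zfp961) and 17 were not called. These 19 were picked for a wide spread within a group, with a median SE of 0.466 against 0.076 in the other 195. Few calls among them are thus in part built into the choice. Zfp260 had 98, 125 and 77 counts in Ctrl and 1115, 167 and 151 in l-FA. It had the highest log2 fold change of all members, 2.14, with an SE of 0.82, and was not called in edgeR (adjusted p = 0.0684). Some alternatives, DESeq2 among them, brought the adjusted p lower. The lowest, 0.0364, and the highest, 0.172, both came from edgeR fits with 1 library left out. Between fits that left out 1 library its log2 fold change went from 0.62 to 2.57. Zfp81 had 370, 29 and 36 counts in Ctrl and 506, 569 and 563 in l-FA. The fitted log2 fold change of 1.83 (adjusted p = 0.128 in edgeR) became 3.99 (adjusted p = 9.39e-05) without Ctrl library 1. Zfp266 showed the reverse, with 1887, 1970 and 1889 counts in Ctrl and 2426, 2372 and 653 in l-FA. The log2 fold change was -0.16, and 0.24 without l-FA library 3. The members without such a library numbered 195, of which 99 rose and 22 fell (median 0.22).

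**Figure D5:**
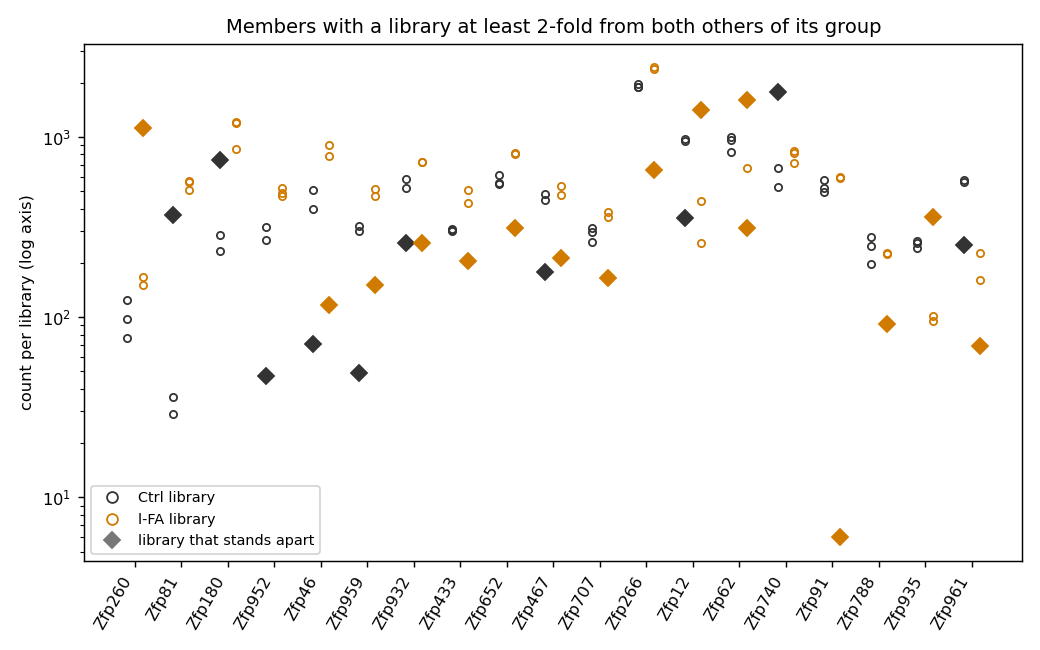
Counts per library (y axis, log scale) of the 19 members with at least 1 library 2-fold or more from both others of its group (x axis, from the highest to the lowest log2 fold change). Diamonds mark the libraries that stand apart, such as the l-FA library of Zfp91 with 6 counts and that of Zfp260 with 1115.

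Cofactors of KRAB proteins and heterochromatin genes were compared as a list of 29 genes. Of these 5 rose and 11 fell (17.2% and 37.9%), with a median log2 fold change of -0.11. Of all genes tested 25.5% rose and 25.0% fell, and of the other protein-coding genes with at least 200 mean counts 26.3% and 30.6%. The difference between the list and these shares was not tested. Trim28, which encodes the protein that KRAB domains bind, had 4175, 4380 and 4392 counts in Ctrl and 3218, 3237 and 3077 in l-FA. The groups were apart, at 224 ± 9.20 and 156 ± 4.49 CPM (SD, n = 3), a log2 fold change of -0.52 (SE 0.039, adjusted p = 0.000116 in edgeR). The HP1 genes Cbx5 (-0.25), Cbx3 (-0.28) and Cbx1 (-0.13) fell as well, as did Hdac2 (-0.31), Morc2a (-0.34), Suv39h1 (-0.18), Sumo2 (-0.17), Chd4 (-0.14), Dnmt1 (-0.11) and Atrx (-0.11). The calls of Chd4 and Atrx were lost in at least 1 alternative fit (adjusted p up to 0.0629 and 0.0896). Setdb1 rose, from 1975, 1965 and 1893 counts to 2395, 2277 and 2259 (log2 fold change 0.17, SE 0.044, adjusted p = 0.0182 in edgeR). Atf7ip, the partner of SETDB1, rose by 0.29, Tasor, of the HUSH silencing complex, by 0.38, Morc3 by 0.25 and Hdac1 by 0.09, the last with its call lost in at least 1 alternative fit (adjusted p up to 0.0714).

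Other families of C2H2 genes were smaller. Of 23 Zbtb genes with at least 200 mean counts, 8 rose and 2 fell (34.8% and 8.7%, median 0.11). Of 12 Zscan and Zkscan genes 7 rose and 1 fell (58.3% and 8.33%, median 0.23). The shares were 46.7% and 10.7% for the members, and 26.3% and 30.6% for the other protein-coding genes at that count limit. More rises than falls were thus seen in these families too. The 140 numbered Zfp genes under the count limit included 116 that were tested, of which 39 rose and 19 fell (33.6% and 16.4%, median 0.27).

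Levels between members were compared per length, as FPKM. The median member had 3.31 FPKM over all libraries, and the range was from 0.757 for Zfp788 to 123 for Zfp706. Zfp706, a small protein with 1 finger, had 15133, 15081 and 15382 counts in Ctrl and 13211, 12665 and 12693 in l-FA and fell (log2 fold change -0.32, SE 0.022, adjusted p = 7.97e-05 in edgeR); it shares 38.9% of its windows with other genes and overlaps Gm26766. Zfp35 (31.5 FPKM), Zfp207 (29.0), Zfp771 (25.7) and Zfp692 (22.4) followed. Zfp35 and Zfp771 were not called, so of the 5 highest members 1 rose and 2 fell. By mean count, 50 of 105 members between 200 and 500 rose, 33 of 68 between 500 and 1000, and 17 of 41 at 1000 or more, with medians of 0.38, 0.18 and 0.12 on the log2 scale. Members that passed the limit only through 1 group lie in the lowest range. They are 13 with a Ctrl mean under 200, of which 11 rose, and 5 with an l-FA mean under 200, of which 3 fell. The medians are thus no measure of an effect of level. Just inside the limit of 200 lay Zfp329 (208.5) and Zfp831 (209), and just outside it Zfp513 (198.3) and Zfp532 (198.2).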

How the data were processed

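RNA of sorted HSCs was measured in 3 Ctrl and 3 l-FA libraries. The authors deposited whole-number raw counts per gene and FPKM (scaled for gene length and library total, per the file headers). The submitters' processing notes name HISAT2, SAMtools 1.3.1, StringTie, edgeR and GRCm39; roles and counting strand are not given in the sources used here. Dose and age come from the study's methods.

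The quasi-likelihood test of edgeR 4.0.16 (R 4.3.3; TMM, filterByExpr, glmQLFit, glmQLFTest) used these counts and kept 16520 of 27198 genes; SE was derived from the F statistic. The study's methods name DESeq2 and a fold change above 2, used as alternatives (DESeq2 1.42.0). The code was tested on simulated data. Library totals were 19287735 to 20380610. The test estimated the spread between libraries, which may be technical, and the counts had no molecular identifiers. Groups and replicate numbers came from the labels. Over all genes tested, deviations of same-numbered libraries were not correlated. Other scalings, filters, count limits, cluster gaps, the replicate block and each library left out were alternatives, the library and shared-window exclusions and the looser KRAB pattern being added after seeing the data.

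Strand was taken by gene ID from GENCODE M21 (GRCm38), whose coding sequences were translated in Python 3.11.15 for finger and KRAB patterns, in place of the RefSeq proteins that had been planned. Promoters are RefSeq's. Members, lists and motifs were chosen with earlier results of these data known. Genes named are those with known roles, the 10 largest rises and falls called, the 5 highest by FPKM, those nearest the limit, members of clusters or with a library that stands apart, and genes of the lists; Zfp646, Zfp668, Zfp969, Zfp433 and Zfp326 among others are named for overlap, shared sequence or the limit. The summed level of the erythroid markers is not reported here.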

Additional observations from a re-analysis of the deposited data

How the results depend on the processing

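The rise of members over falls kept its direction under every alternative run. Counts of rises and falls were 100 and 23 as reported. They were 50 and 13 at a mean count of 500 or more (median log2 fold change 0.173), 8 and 1 with the 2-fold limit, and 73 and 11 without overlaps (median 0.308). Members with little shared sequence had a median of 0.173, and upper-quartile scaling gave 0.238. In these restrictions fewer members were counted; the cause of other moves was not tested. With the replicate block 93 members rose and 14 fell, and 92 and 14 of the calls without it were shared. Over all genes tested, same-numbered libraries had correlations of deviations of 0.0187, -0.0132 and -0.05. These values show no pairing over the genes as a whole, and cannot show that none exists. With each library left out in turn, 90 to 93 rose and 15 to 20 fell, with medians from 0.215 to 0.242. The lowest count of falls, 15, came without Ctrl library 1. Of the members called, 84 rises and 13 falls held in all 12 alternative fits. Falls of Zbtb genes went from 2 to 1 with the block, with no filter and with upper-quartile scaling, and were 1 to 2 with a library left out, with 5 to 8 rises. Falls of Zscan and Zkscan genes were 2 in DESeq2 and 1 to 2 with a library left out.

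Among 120 genes covered by the naming rule or named in the text, the sign of 17 changed with a library left out. None of the 17 was called with all libraries. Without 1 library Zfp266 (l-FA library 3), Zfp433, Zfp652 and Zfp708 (l-FA library 1) were called. For Zfp708 the other l-FA libraries are at 0 counts, so the fitted value is no bound. With a library left out, log2 fold changes ran from -0.31 to 0.26 for Dnmt3a, -0.06 to 0.01 for Smarcad1, -0.03 to 0.02 for Uhrf1, -1.20 to 0.23 for Zfp12, -0.41 to 0.24 for Zfp266, -0.14 to 0.36 for Zfp329, -0.01 to 0.57 for Zfp433, -0.24 to 0.39 for Zfp467, -0.96 to 0.20 for Zfp62, -0.22 to 0.09 for Zfp622, -0.11 to 0.45 for Zfp652, -0.18 to 0.28 for Zfp707, -8.33 to 0.68 for Zfp708, -0.72 to 0.31 for Zfp740, -0.17 to 0.28 for Zfp758, -0.88 to 0.12 for Zfp91 and -0.02 to 0.61 for Zfp932. Uhrf1 was at 0.00 with at least 10 counts in every library and at 0.02 with upper-quartile scaling, Zfp707 at 0.00 with the latter, and Zfp652, Zfp758 and Zfp708 at -0.02, -0.02 and -1.12 with the block.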
